A study of Mus musculus with 2 samples.

Results

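Gfap-high Aldoc cells were 1575 cell barcodes of 13278 kept barcodes, in a deposited matrix of 14685 barcodes from cultured mouse neural stem cells. A barcode was kept with at least 500 detected genes and at most 10% of its unique molecular identifiers (UMIs) from mitochondrial genes. It was a Gfap-high Aldoc cell if it held at least 20 UMIs of Gfap, at least 2 UMIs of Aldoc and at most 1 UMI over the division genes Cenpf, Ube2c, Cdk1, Top2a and Mki67 together. The cells were thus chosen by their raw UMIs of 7 genes, whose levels are given as description only. The study made 2 libraries from C57/Bl6J neural stem cells of the subventricular zone: 1 treated with 1 µM 20HC, an oxysterol (an oxidised cholesterol), and 1 vehicle control with DMSO, both 3 days after EGF and FGF were withdrawn. The treatment field of the control library also names 20HC, so its group rests on its title. All cells had been expanded in growth factors and differentiated in a dish, so they model astrocytes outside their tissue. Barcodes end in 1 or 2 (barcode sets 1 and 2), neither label nor file links these numbers to the libraries, and 20HC was therefore not compared with control. Set values carry no condition. The matrix is 1 sample, no test was possible, and every interval is 95% and covers counting error only.

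Astrocytes of the subventricular zone support neurons and vessels, and some of them are stem cells. Gfap encodes the glial fibrillary acidic protein, an intermediate filament that astrocytes build up when they mature or react to injury. Aldoc encodes aldolase C, the brain form of a glycolytic enzyme, which is widely used as an astrocyte marker. Cldn10 encodes a claudin and Slc1a2 the main glutamate transporter of mature astrocytes. Gfap transcription is driven by STAT factors downstream of cytokines and by NFI factors.

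The start regions of Gfap and Aldoc are shown because these genes select the cells. Gfap (ENSMUSG00000020932, protein coding) is on chromosome 11, minus strand, 102887336 to 102900912, and Aldoc (ENSMUSG00000017390, protein coding) on chromosome 11, plus strand, 78322968 to 78327781, on GRCm38 as annotated by GENCODE M21. Each window of 300 bases below is from RefSeq (GRCm38.p6), runs 5′ to 3′ on the strand of its gene and covers the bases around 1 annotated start. Capitals mark matches to TTCNNNGAA, a STAT pattern, or to TTGGC, a short NFI pattern, searched on both strands; no match of one overlapped a match of the other in these windows.
Gfap, chr11:102897151-102897450, minus strand: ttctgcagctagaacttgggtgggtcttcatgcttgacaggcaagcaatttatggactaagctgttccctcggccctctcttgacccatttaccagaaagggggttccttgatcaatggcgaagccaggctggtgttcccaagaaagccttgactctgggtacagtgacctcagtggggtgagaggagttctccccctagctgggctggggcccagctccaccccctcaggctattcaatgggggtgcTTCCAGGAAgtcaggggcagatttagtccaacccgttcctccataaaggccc
Aldoc, chr11:78322823-78323122, plus strand: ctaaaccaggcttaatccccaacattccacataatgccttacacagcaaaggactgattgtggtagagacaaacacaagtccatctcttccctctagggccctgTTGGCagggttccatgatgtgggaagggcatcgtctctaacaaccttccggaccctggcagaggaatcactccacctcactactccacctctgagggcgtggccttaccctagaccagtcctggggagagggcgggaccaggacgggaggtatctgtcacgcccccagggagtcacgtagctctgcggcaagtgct
Aldoc, chr11:78323948-78324247, plus strand: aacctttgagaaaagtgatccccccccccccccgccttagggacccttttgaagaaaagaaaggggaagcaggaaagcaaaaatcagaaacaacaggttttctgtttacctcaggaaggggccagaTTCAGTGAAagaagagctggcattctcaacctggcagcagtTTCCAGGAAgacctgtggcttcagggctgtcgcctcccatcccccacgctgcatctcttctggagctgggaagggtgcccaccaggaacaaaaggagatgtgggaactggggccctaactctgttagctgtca
The STAT pattern occurred 1 time in the Gfap window, 2 times in the second Aldoc window, and 0 times in the first Aldoc window, in the 2 windows of Cldn10 and in the 1 window of Slc1a2; 8.30% of 32851 RefSeq windows of the same length held it. The short NFI pattern occurred 1 time each in the first Aldoc window and the Slc1a2 window and 0 times in the other 4, and 46.7% of all windows held it. These are matches of letters, and no binding was measured. The UMIs were counted near the 3′ ends of transcripts, so the 2 Aldoc starts could not be told apart in the data.

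The matrix held 41462326 UMIs. Gfap-high Aldoc cells had a median of 3453 UMIs and 1630 genes, against 2763 UMIs and 1368 genes in all other kept barcodes; a threshold on raw UMIs favours deep barcodes. They made up 11.4% of kept barcodes in set 2 (390 of 3409, exact Clopper-Pearson interval 10.4 to 12.6%) and 12% in set 1 (1185 of 9869, interval 11.4 to 12.7%), and the intervals overlapped. Their median Gfap was 35 UMIs (quartiles 26 and 48, highest 272) and their median Aldoc 4 UMIs (quartiles 3 and 6, highest 30). They held 49% of all Gfap UMIs of kept barcodes and 39.5% of all Aldoc UMIs. Of these cells, 1338 had no UMI of the 5 division genes and 237 had 1. Scrublet called 17 of them as doublets, all in set 1. The sets shared 48 barcode sequences; 12 Gfap-high Aldoc cells carried one of these, and for 2 of the sequences both barcodes were Gfap-high Aldoc cells.

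**Figure D1:**
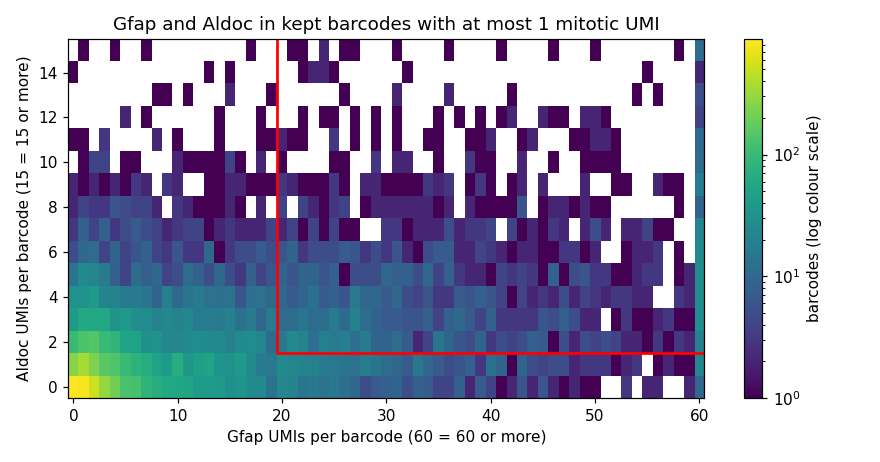
Gfap UMIs (x axis, 60 or more in the last column) against Aldoc UMIs (y axis, 15 or more in the top row) for kept barcodes with at most 1 UMI of the 5 division genes. Colour is the number of barcodes on a log scale, and the red line encloses the 1575 Gfap-high Aldoc cells, which run into the rest with no gap at 20 Gfap UMIs.

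No gap in the data marked the threshold. The 129 cells just inside it, with 20 or 21 Gfap UMIs, had 109 CPM (UMIs of the gene per 1000000 UMIs of the group) of Cldn10 and 451 CPM of Slc1a2, and the 120 barcodes just outside, with 18 or 19, had 149 and 430 CPM. For Aldoc, the 332 cells at 2 UMIs had 97.4 CPM of Cldn10 and the 358 otherwise like barcodes at 1 UMI had 91.0. The group is a range cut from a continuum.

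Several groups of kept barcodes served for comparison. Gfap-low Aldoc cells (1280, median 3000.5 UMIs) met the same Aldoc and division conditions but had at most 5 Gfap UMIs. Another 603 barcodes met the Gfap and division conditions with 0 or 1 Aldoc UMI (median 3198 UMIs). A set of 763 barcodes met the division condition and had fewer than 20 Gfap UMIs and UMIs of at least 2 of Pcp4, Agt and Gria1 (median 3223 UMIs). These genes were taken from earlier results of these data as marks of other astrocyte-like cells. Whether they mark a separate state was not tested. This set had no Aldoc condition, so it can share barcodes with the Gfap-low Aldoc cells. The last group was all 11703 other kept barcodes.

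Gfap UMIs were found in nearly every kind of barcode, so its level in barcodes of other types was gauged first. In 36 barcodes with at least 5 UMIs of microglia genes Gfap stood at 703 CPM, in 196 barcodes with at least 10 UMIs of fibroblast collagens and proteoglycans at 477 CPM, in 1004 barcodes with at least 3 UMIs of Dlx neuroblast genes at 622 CPM, and in 100 barcodes with at least 3 UMIs of precursor genes at 542 CPM. Gfap-high Aldoc cells had 11051 CPM, and Gfap-low Aldoc cells 736 CPM, which the limit of 5 Gfap UMIs sets. The 4 types had no such limit and the microglia value rests on 36 barcodes, so 736 CPM is not ranked against them. Whether the Gfap UMIs of these barcodes came from the cells or from free RNA was not tested. Aldoc stood at 100 CPM in microglia-gene barcodes and 1080 CPM in Gfap-low Aldoc cells, whose level their minimum of Aldoc UMIs sets in part. The microglia-gene barcodes had no such minimum, so these Aldoc values are not ranked against each other either.

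The astrocyte label was set against markers outside the rule. Cldn10 and Slc1a2 were picked as markers of these cells with earlier results of these data known, so they are no independent check. Cldn10 was at 141 CPM (interval 131 to 151) in Gfap-high Aldoc cells, against 62.4 in Gfap-low Aldoc cells and 49.7 in all other kept barcodes. Slc1a2 was at 526 CPM (507 to 545), against 364 and 237. Aqp4, the water channel of astrocyte endfeet, was at 1296 CPM, against 1071 and 584. Slc1a3, the glutamate transporter of immature and mature astrocytes, was at 675 CPM, against 450 and 331, and Aldh1l1, a folate enzyme used as a pan-astrocyte marker, at 477, against 361 and 225.
Each of these 5 was at least 1.5-fold above all other kept barcodes, and Cldn10 alone of the 5 was also at least 1.5-fold above Gfap-low Aldoc cells. Gja1, a gap junction connexin, was at 579 CPM in Gfap-high Aldoc cells, against 584 in Gfap-low Aldoc cells and 340 in all other kept barcodes. S100b, a calcium-binding protein of mature astrocytes and of oligodendrocyte precursors, was lower, at 13.0 CPM (10.2 to 16.4), against 28.9 in Gfap-low Aldoc cells and 21.1 in all other kept barcodes.
At 2000 UMIs per cell, 24.0% of Gfap-high Aldoc cells had a Cldn10 UMI and 59.9% an Slc1a2 UMI (33.6% and 76.3% without thinning, median 3453 UMIs). In Dlx-gene barcodes, which should lack both, the shares were 1.87% and 11% (3.29% and 15.54% without thinning, median 2885.5 UMIs). Of the 7 astrocyte markers outside the rule, 6 were higher than in all other kept barcodes and S100b was lower. The 6 include Cldn10 and Slc1a2, which are no independent check. Over all 12355 genes measured in this comparison, 11.7% were higher and 13.6% lower. Aqp4 was at 1285 CPM in barcodes with Pcp4, Agt or Gria1 UMIs and 1195 in Gfap-high barcodes below the Aldoc threshold. Gja1 was at 606 and 601 CPM there, so high levels of both genes were not particular to Gfap-high Aldoc cells. In the same groups Slc1a3 was lower, at 435 and 558 CPM, as was Aldh1l1, at 331 and 425. Slc1a2 (310 and 426) and Cldn10 (46.1 and 80.3) were lower too, and S100b (42.6 and 21.1) was higher.

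**Figure D2:**
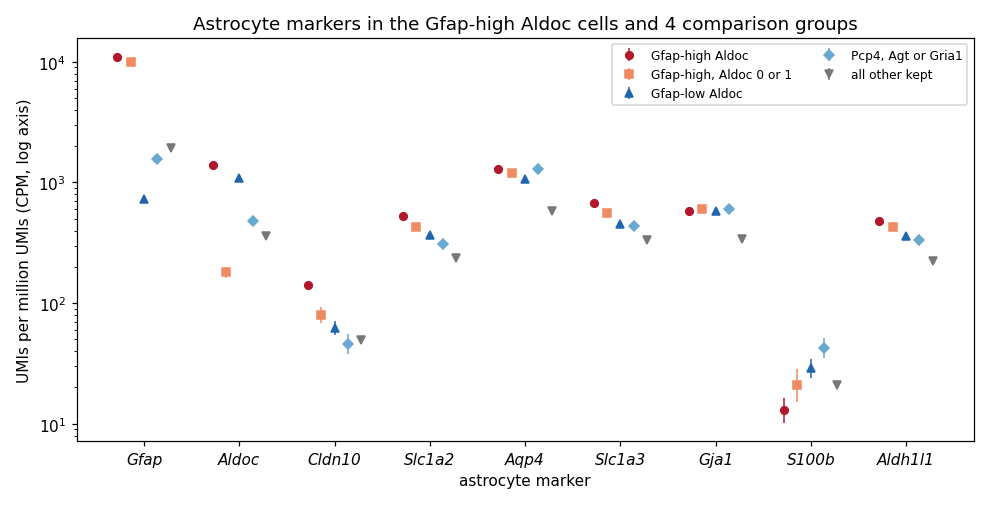
CPM (log axis) of 9 astrocyte markers in Gfap-high Aldoc cells (red circles) and 4 comparison groups, with exact Poisson 95% intervals as bars. Gfap and Aldoc are set by the rule; Cldn10 sits highest and S100b lowest in Gfap-high Aldoc cells.

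Summed markers of microglia, neuroblasts and fibroblasts were below those of Gfap-low Aldoc cells and of all other kept barcodes, with no test. The 8 microglia markers summed to 7.93 CPM, against 48.1 in Gfap-low Aldoc cells and 141 in all other kept barcodes, with 2 of the 8 at 0. The difference from Gfap-low Aldoc cells lay in set 1 (9.03 against 59.2 CPM); in set 2 Gfap-high Aldoc cells had 4.78 CPM and Gfap-low Aldoc cells 3.88. In barcodes with Pcp4, Agt or Gria1 UMIs the sum was 6.25 CPM. The 9 neuroblast markers summed to 55.9 CPM, against 124 and 617, and the 8 fibroblast or mural markers to 84.0, against 249 and 434. Gfap-high barcodes with 0 or 1 Aldoc UMI had 55.7 and 70.8 CPM of these sums, and barcodes with Pcp4, Agt or Gria1 UMIs 55.1 and 121. In set 2 the neuroblast sum was 33.4 CPM in Gfap-high Aldoc cells and 47.9 in Gfap-low Aldoc cells. Not every other type was lower. The 7 ependymal markers summed to 187 CPM, against 180 in Gfap-low Aldoc cells and 126 in all other kept barcodes. The 6 endothelial markers summed to 17.97 CPM, against 15.9 and 16.2. The 5 choroid plexus markers summed to 2.29 CPM, against 1.3 and 7.35, with 2 of the 5 at 0. Oligodendrocyte precursor markers were lower, at 98.5 CPM against 192 and 169. Myelinating oligodendrocyte markers were lower too, at 245 CPM against 289 and 275. Erythroid markers were at 0 for 4 of 5 genes. Barcodes rich in genes of another type were few: 3 of the 1575 by Dlx genes, 1 by precursor genes, 1 by collagen genes and 0 by microglia genes, against 8, 4, 4 and 1 of the 1280 Gfap-low Aldoc cells.

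What set these cells apart from Aldoc cells with little Gfap was asked next. A gene with at least 50 UMIs in both groups together was measured. A call needed a CPM ratio of at least 1.5-fold, the same sign in each barcode set, and that the CPM of Gfap-low Aldoc cells lay outside the Poisson interval of Gfap-high Aldoc cells. Of 9693 genes, 307 were higher (3.17%) and 301 lower (3.11%), and 145 and 151 when the intervals of both groups also had to lie apart. The median log2 ratio, from CPM + 5, was -0.01.

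The higher genes are given first. Igfbp5, a secreted binder of insulin-like growth factors, had 1459 CPM in set 2 and 1891 in set 1 of Gfap-high Aldoc cells, and 827 CPM over both sets of Gfap-low Aldoc cells (log2 ratio 1.1). 1500015O10Rik stood at 267 and 220 CPM in sets 2 and 1, against 94.4 (log2 ratio 1.25). Lpar1, a receptor for lysophosphatidic acid, was at 159 CPM, against 72.0, and A2m, the protease inhibitor alpha-2-macroglobulin, at 59.7, against 25.7.
Also among the 12 largest ratios were Adamts9, a matrix-cleaving protease (30.3 against 9.88 CPM), Serpinb1a, an inhibitor of neutrophil proteases (27.3 against 9.62), Crispld2, a secreted protein (16.9 against 4.94), and Ntng1, a netrin G adhesion protein (18.3 against 5.98). Pax6, a transcription factor of neural stem cells and of some astrocytes, was at 76.1 CPM (69.1 to 83.6), against 29.9. Ptges, which makes prostaglandin E, was at 11.1 CPM, against 1.56, and the homeobox gene Prrx2 at 9.34, against 1.82. For each of these genes both sets were above the same sets of Gfap-low Aldoc cells, and the intervals did not overlap.

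The lower genes came next. Tubb3, the neuronal tubulin, was at 32.6 CPM, against 82.4 in Gfap-low Aldoc cells (log2 ratio -1.22), and Elavl4, a neuronal RNA-binding protein, at 3.88, against 14.6. C1ql1, a secreted C1q-like protein of oligodendrocyte precursors, was at 47.7 CPM (42.2 to 53.8), against 123. The long noncoding RNA Meg3 was at 94.4 CPM, against 237, and Basp1, a protein of growth cones, at 9.34, against 28.1.
Crym, a thyroid hormone-binding protein, was at 4.78 and 13.5 CPM in sets 2 and 1, against 40.6 over both sets of Gfap-low Aldoc cells. Acta2, smooth muscle actin, was at 31.4 CPM, against 126 (log2 ratio -1.85), and Col1a2, a fibrillar collagen, at 2.82, against 18.98 (-1.62). Gfap-low Aldoc cells held 4 barcodes rich in collagen genes and Gfap-high Aldoc cells 1; without all barcodes rich in genes of another type the Acta2 ratio was -0.59 and the Col1a2 ratio -0.44, and that of Tubb3 was -1.02. In set 2 alone the Tubb3 ratio was -0.32, that of Col1a2 -0.68 and that of Crym -2.63, and among the higher genes that of Prrx2 was 0.41 and that of Lpar1 1.83. With at least 4 Aldoc UMIs in both groups the Tubb3 ratio was -0.52, that of Acta2 -0.64 and that of Col1a2 -0.44. Ccdc103, Hist3h2ba, Ptpre and Lhfpl3 completed the 12, with log2 ratios between -1.19 and -1.15.

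**Figure D3:**
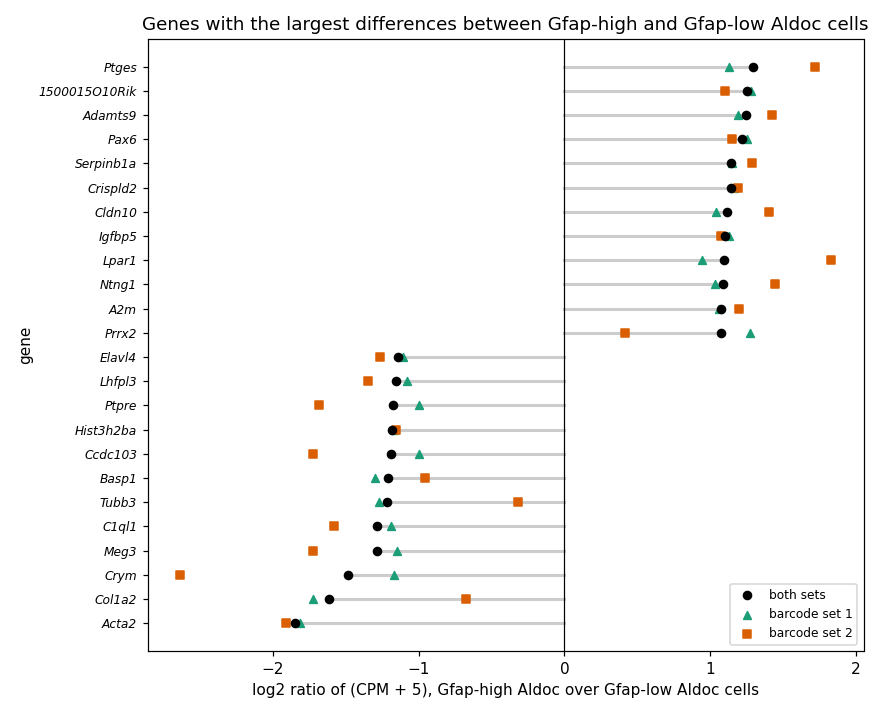
Log2 ratio of (CPM + 5) in Gfap-high Aldoc over Gfap-low Aldoc cells for the 12 highest and 12 lowest called genes, over both barcode sets (black), in set 1 (green) and in set 2 (orange). All 24 genes keep their side of 0 in both sets, which the call required; Acta2 is lowest at -1.85 and Ptges highest at 1.30.

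Transporters and channels were the list with the largest share of higher genes: 8 of 23 measured were higher and 1 lower (Kcnk2, whose intervals overlapped), with a median log2 ratio of 0.41. Cldn10, 1 of the 8, is described above. The list also holds Slc1a2, and both were picked as markers with earlier results of these data known. Slc25a18, a mitochondrial glutamate carrier, was at 315 CPM, against 187 in Gfap-low Aldoc cells, and Slc15a2, a peptide transporter, at 80.3, against 50.2. Slc7a11, the cystine and glutamate exchanger, was at 31.9 CPM, against 13.8, and Slco1c1, a thyroid hormone transporter, at 54.6, against 28.3.
The connexin gene Gjb6 was low in every group, at 8.28 against 1.56 CPM, and the GABA transporter Slc6a11 at 11.5 against 5.46. Kcnj10, the potassium channel that buffers the extracellular space, was not called, at 140 CPM against 106. Slc1a2 and Slc1a3, with log2 ratios of 0.52 and 0.58, were not called at 1.5-fold either.

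Metabolic genes had smaller medians. Of 21 measured astrocyte enzymes and S100 proteins, 3 were higher and S100b lower (median 0.18): Pla2g7, which cleaves oxidised phospholipids, at 425 against 242 CPM, Mgll, which breaks down an endocannabinoid, at 341 against 217, and the proline enzyme Prodh at 20.1 against 12.5. Of 20 glycolysis and hypoxia genes 2 were higher and 1 lower. Pfkp, the platelet-type phosphofructokinase and 1 of the higher genes, was at 194 CPM (182 to 205), against 91.8, and the list's median was -0.12. Thrsp, a regulator of fat synthesis, was the 1 gene called of 11 fatty acid genes (441 against 258 CPM). The glutathione peroxidase Gpx1 was at 963 CPM (938 to 989), against 574, and the quinone reductase Nqo1 at 18.5, against 10.1, out of 22 redox genes. Metallothionein Mt1 was at 8129 CPM in Gfap-high Aldoc cells and 9566 in Gfap-low Aldoc cells, and was not called.

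In 22 measured matrix and adhesion genes 4 were higher and 2 lower. Sparcl1, the synapse-promoting protein hevin, was at 1890 and 1742 CPM in sets 2 and 1, against 1010 over both sets of Gfap-low Aldoc cells. Fibronectin (Fn1) was at 101, against 52.5, the proteoglycan Cspg5 at 247, against 151, and the integrin Itgb5 at 39.3, against 17.2. Vcan, the versican gene, was lower at 27.3 CPM, against 43.4, as was Col1a2. Of the reactive genes, 2 of 20 measured were higher (Gbp2, an interferon-induced GTPase, at 29.95 against 17.7 CPM, and Clcf1) and 2 lower (Cryab, and Cp with overlapping intervals), with a median of 0.02. Vim, the partner filament of Gfap, was at 4109 CPM in Gfap-high Aldoc cells and 4393 in Gfap-low Aldoc cells, and Nes, the stem cell filament nestin, at 51.4 and 47.8. None of 13 measured antigen presentation and interferon genes was called.

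Of the 7 genes of the Pcp4 list, 6 were lower. Pcp4, a calmodulin-binding peptide, was at 94.97 CPM, against 207 in Gfap-low Aldoc cells. Cryab, a small heat shock protein, was at 229, against 437, and Stmn2, a microtubule regulator, at 185, against 327. Gria1, an AMPA receptor subunit, was at 54.6 CPM, against 86.3, and Stmn4 at 18.5, against 34.8; C1ql1 is described above. Agt, angiotensinogen, was not called, at 67.1 against 98.3 CPM. This list was drawn from earlier results of the same data, so its count is no independent evidence of a direction.

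Few transcription factors and signalling genes were called against Gfap-low Aldoc cells. Calls were few over all 9693 measured genes too (3.17% higher and 3.11% lower), so the low counts are no trait of these lists. Of 25 glial factors 1 was called (Sox8, lower, 12.3 against 24.96 CPM); Sox9 was at 507 and 470 CPM in the 2 groups, Nfia at 359 and 278, and Stat3, an activator of Gfap, at 144 and 116. Id3, an inhibitor of helix-loop-helix factors that follows BMP signals, was at 823 and 611 CPM and was not called. In the Hedgehog list 1 of 12 measured genes was called (Ccnd2, a cyclin, lower, 337 against 514 CPM). Gli2, the factor the study asks about, was at 7.58 CPM (5.48 to 10.2), against 5.72, and the Hedgehog signal transducer Smo at 36.8, against 32.8; neither was called. None of 10 measured LXR genes and none of 23 cholesterol genes was called, with medians of 0.09 and 0.04; Apoe was at 8741 CPM and 7345 CPM. Among receptors of the withdrawn growth factors Fgfr1 was higher (80.0 against 52.0 CPM) and Egfr was not called (33.5 against 29.6).
The progenitor list of 16 measured genes had 1 higher (Pax6) and 3 lower (Dlx1, Sox4 and Sox11), with Sox4 at 136 CPM against 222. Of 21 measured cell cycle genes outside the rule 4 were lower and 1 higher (Ccnb1, whose intervals overlapped), and the median was -0.35.
In other lists the calls were few: Asns lower among 14 stress genes, Tmsb10 lower among 13 cytoskeletal genes, Hes6 lower among 10 Id, Notch and BMP genes, and none among 12 immediate early or 18 lysosomal and lipoprotein genes.

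Against all other kept barcodes, which hold dividing progenitors, neuroblasts and precursors, the differences were wider. Of 12355 measured genes 1443 were higher (11.7%) and 1682 lower (13.6%), and the median log2 ratio was 0.03. Transporters and channels were higher for 20 of 24 measured genes and lower for none (median 0.89), and enzymes and S100 proteins were higher for 15 of 21, with S100b lower (median 0.80). Glial factors were higher for 13 of 25 and lower for 1 (Sox8), and fatty acid genes higher for 6 of 12 and lower for 1 (Elovl2). Hedgehog genes were higher for 4 of 16 (Gli2, Smo, Boc and Dhh) and lower for 3 (Mycn, Ccnd1 and Ccnd2). LXR genes were higher for 7 of 14 and lower for 2 (Apod and Lpl), and reactive genes higher for 13 of 26 and lower for 2 (B3gnt5 and Fkbp5). The 10 largest ratios were those of 1500015O10Rik (1.67), Igfbp5 (1.44), Lpar1 (1.44), Serpinb1a (1.42), Cldn10 (1.41), Cybrd1, an iron reductase (1.39), Pla2g7 (1.38), Chil1, a chitinase-like protein of reactive astrocytes (1.38), A2m (1.35) and Sparcl1 (1.35). Stat3 was at 144 CPM, against 90.4, Hopx, a homeodomain-only protein of quiescent stem cells, at 26.4, against 14.5, Srebf1, the LXR-driven regulator of fat synthesis, at 114, against 62.3, and Cd44, a hyaluronan receptor of reactive astrocytes, at 197, against 105.
Cell cycle genes outside the rule were lower for 21 of 24. The rule leaves out barcodes with more than 1 UMI of 5 division genes, so this count is a description of the choice in part; the 21 also include the cell cycle inhibitors Cdkn1b (34.5 against 52.5 CPM) and Cdkn1c (0.88 against 3.79). The 10 lowest ratios were all of genes that dividing cells use (2810417H13Rik, Pbk, Birc5, Hist1h1b, Cenpa, Cdca8, Cenpe, Cdc20, Cenpm and Fam64a), and ran from -4.69 to -3.68.

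**Figure D4:**
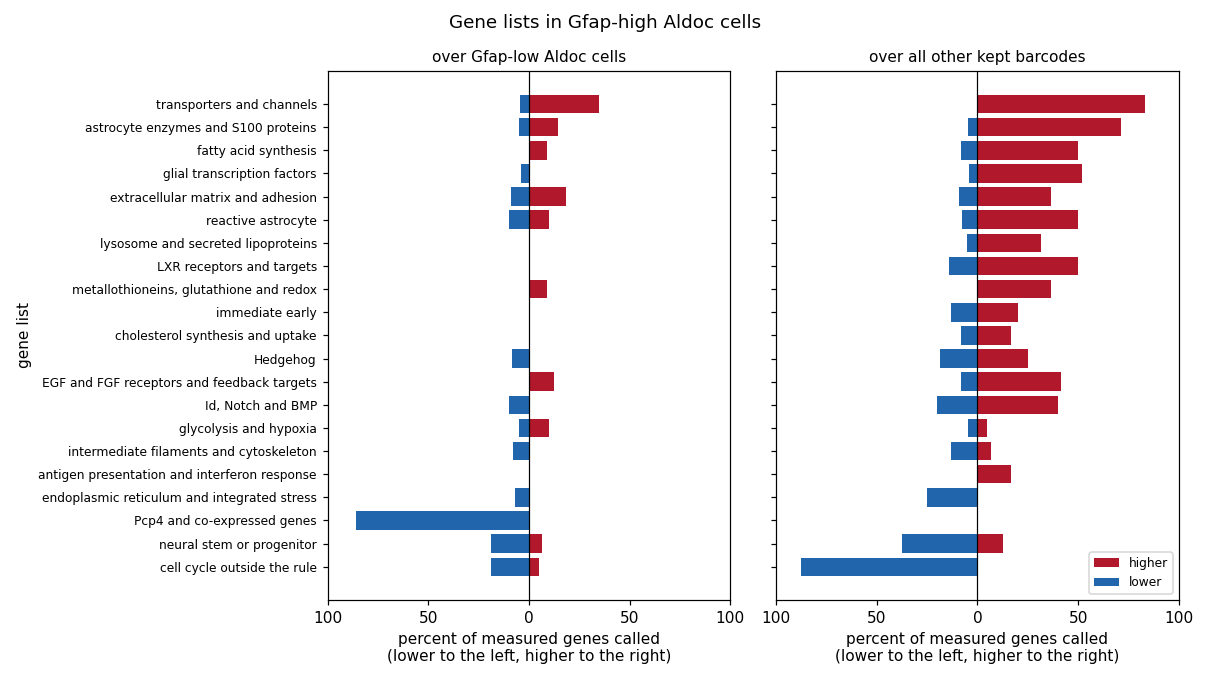
Share of measured genes in each of 21 lists called higher (red, to the right) or lower (blue, to the left) in Gfap-high Aldoc cells, over Gfap-low Aldoc cells on the left and over all other kept barcodes on the right. Transporters and channels have the largest higher share in both panels (8 of 23 and 20 of 24), and the Pcp4 list has the largest lower share on the left (6 of 7). The transporter list holds Cldn10 and Slc1a2, which were picked with earlier results of these data known. The Pcp4 list was drawn from such results.

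Gfap-high barcodes with 0 or 1 Aldoc UMI share the Gfap condition. Of 9193 measured genes 213 were higher (2.32%) and 298 lower (3.24%) in Gfap-high Aldoc cells. Of 22 transporters 4 were higher: Cldn10 (141 against 80.3 CPM), Slco1c1 (54.6 against 21.1), Slc7a11 (31.9 against 15.6) and Gjb6, whose intervals overlapped. Pax6 (76.1 against 50.7 CPM) and Hes5 were higher among 15 progenitor genes, and Gli2 and Gli3 were higher among 12 Hedgehog genes, Gli2 at 7.58 against 4.02 CPM; the intervals of Gli2, Gli3 and Hes5 overlapped. Igfbp5 stood at 1779 CPM, against 1352, and Sparcl1 at 1780, against 1358.
Against the barcodes with Pcp4, Agt or Gria1 UMIs, 383 of 9397 genes were higher (4.08%) and 524 lower (5.58%). The transporters were split, 9 of 23 higher and 3 lower, and Slc39a12, a zinc transporter, and Slc6a9, a glycine transporter, were among the lower. Of 25 glial factors 2 were higher (Lhx2 and Emx2) and 2 lower (Sox8 and Hopx). Of 12 Hedgehog genes 2 were higher (Gli2 and Gli3) and 0 lower, by a call rule that ignores counting error in the comparison barcodes. Of 20 measured reactive genes 2 were higher (Osmr and Gbp2) and 4 lower (Serpina3n, Cp, Ptx3 and Cryab). Hopx and Ptx3 were thus higher than in all other kept barcodes but lower than in this group. Slco1c1 was at 54.6 CPM, against 8.98, Pax6 at 76.1, against 17.96, and Slc7a11 at 31.9, against 8.59. Pcp4, Agt and Gria1 chose that group, and their differences are not results.

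How the cells varied with Gfap was described inside the group. It was split into 3 equal parts of 525 cells by Gfap per 10000 UMIs, whose medians were 70.7, 103 and 159. Median depth was 3889, 3245 and 3343 UMIs from the lowest to the top part, and a shallow barcode needs a larger Gfap share to reach 20 UMIs. Of 7256 measured genes 155 were higher (2.14%) and 228 lower (3.14%) in the top than in the lowest part. In cells between the quartiles of depth, with medians of 3464 and 3508 UMIs, 150 of 4696 genes were higher (3.19%) and 160 lower (3.41%).
Lcat, which esterifies cholesterol on lipoproteins, had the largest ratio, at 16.2, 38.4 and 55.0 CPM from the lowest to the top part (log2 ratio 1.503, and 1.32 between the depth quartiles). Id3 stood at 617, 859 and 1027 CPM over the same parts. Id1, of the same family, was at 542 CPM in the top part and 333 in the lowest, Pfkp at 258 and 152, and Gpx1 at 1222 and 774. Pcx, the pyruvate carboxylase that refills the citric acid cycle, was at 67.2 CPM in the top part, against 33.3, and 1500015O10Rik at 326, against 170. All 7 were called between the depth quartiles too.
Meg3 was lowest in the top part, at 126, 106 and 45.5 CPM from the lowest part up (log2 ratio -1.38). Nnat, a small membrane protein of developing neurons, was at 45.5 CPM in the top part, against 105, C1ql1 at 30.5, against 68.0, and Coro1c, an actin regulator, at 20.0, against 47.1. Agt was at 46.6 against 80.8 CPM, and Serpina3n and Lgals3, both reactive genes, at 51.1 against 79.4 and at 316 against 481. Slco1c1, higher in the group as a whole, was lower in the top part (35.5 against 65.6 CPM). All 8 of these genes were lower between the depth quartiles too. Pcp4 was at 132, 72.9 and 73.3 CPM from the lowest part up, but its log2 ratio of -0.81 was -0.17 between the depth quartiles, where it was not called. Ccnd2, at 238 against 406 CPM, was not called there either.
Of the lists, transporters had 0 of 19 genes higher and 1 lower in the top part, and reactive genes 0 of 14 higher and 2 lower. At 2000 UMIs per cell, Gfap and Aldoc had a Pearson correlation of 0.15 over 1532 cells, and Gfap and Vim one of -0.04; these cells share libraries and the rule, and the values are descriptions.

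**Figure D5:**
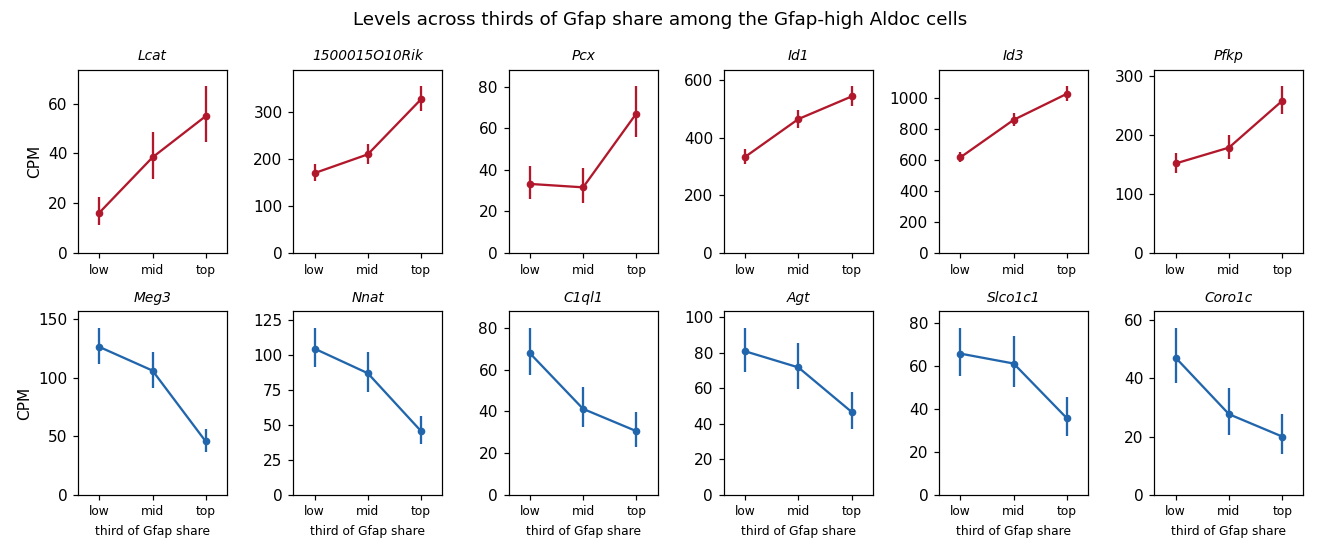
CPM of 12 genes in the lowest, middle and top 525 Gfap-high Aldoc cells by Gfap share, with exact Poisson 95% intervals as bars and axes from 0. The upper row holds genes with their highest level in the top part and the lower row genes with their lowest level there, with Lcat at 16.2 and 55.0 CPM and Meg3 at 126 and 45.5 CPM at the 2 ends.

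Variation between cells beyond counting error was read from the variance over the mean at 2000 UMIs per cell. Its median over 2931 genes with a mean of at least 0.1 UMI was 1.03, and 51 genes were above 2. Spp1, the secreted phosphoprotein osteopontin, was the most variable at 18.8; UMIs of it were in 9.92% of the thinned cells, and 1 cell held 196 before thinning. Its value was 3.57 in set 2 and 21.01 in set 1, and it was 35.0 in Gfap-low Aldoc cells. Lgals3, galectin 3, followed at 9.47 (12.4 in set 2 and 8.24 in set 1), against 2.76 in Gfap-low Aldoc cells. Malat1 (8.21), Tmsb4x (7.57), the ferritin gene Fth1 (7.45), Mt1 (7.18), Apoe (6.32), mt-Co1 (5.89), Dbi (5.82) and Gm42418 (5.30) completed the 10 most variable genes outside the rule.

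Between the barcode sets, which have no condition, few genes of Gfap-high Aldoc cells differed. Of 8372 measured genes 69 were higher in set 2 (0.824%) and 102 lower (1.22%) by at least 1.5-fold with intervals apart; in all other kept barcodes 0.537% were higher and 1.77% lower. Apoe had the highest level among them, at 5156 CPM (5040 to 5274) in set 2 and 9989 CPM (9894 to 10085) in set 1. Srebf1 was at 164 and 96.4 CPM in sets 2 and 1. In all other kept barcodes, Apoe was at 2664 and 5281 CPM and Srebf1 at 84.8 and 54.5 CPM in sets 2 and 1. The histone gene H2afj (36.8 and 120 CPM) and Gm10260 (14.3 and 47.5) were lower in set 2, with log2 ratios of -1.68 and -1.66, and -1.46 and -1.56 in the other kept barcodes. The histone gene Hist1h2al had 1 UMI in set 2 (0.682 CPM, interval 0.0173 to 3.8) and 11.6 CPM in set 1.
Gria1 was at 87.3 CPM in set 2 and 43.2 in set 1 (log2 ratio 1.00), with a log2 ratio of 0.16 in the other kept barcodes. Cxcl10, an interferon-induced chemokine, was at 17.7 and 6.89 CPM (1.25), against 3.42 and 6.13 in the other kept barcodes. Other genes with higher values in set 2 were Slc6a11 (19.1 and 8.79 CPM), Fgfr3 (58.7 and 36.1) and Nes (69.6 and 45.1), and the largest ratio, 1.39, was that of the proline synthesis gene Aldh18a1 (18.4 and 6.41). Usp30, Prep, Kifc3, Dmxl2, Apoc1 and Usp54 lay between 1.35 and 1.13. Besides the histones and Gm10260, 3300002A11Rik, Zfp800, Atm and Zfp943 were among the lowest ratios, from -2.64 to -1.57. Since the sets are not tied to the labels, a library, a treatment and a batch cannot be told apart in these values, and no difference between cell groups was tested.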

How the data were processed

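Per the labels' protocols the 10x Chromium 3′ version 1 chemistry was used; Cell Ranger 2.1.1 and the mm10 build were used, per the submitters' processing notes. The authors deposited whole UMI counts, not normalized, in 1 matrix of 28692 genes. Any equalising of depth across libraries: not given in the sources used here. Of 14685 barcodes, 635 had under 500 genes and 912 over 10% mitochondrial UMIs, and 1407 in all were left out. Counts were summed per group as CPM with exact Poisson intervals. Log2 ratios used CPM + 5, or CPM + 1 between barcode sets. Scrublet (scanpy 1.11.5), run per set, marked 11 of 3409 barcodes of set 2 (2.73% expected) and 239 of 9869 of set 1 (7.90% expected); marked barcodes were kept. Thinning drew 2000 UMIs per cell and kept 1532 Gfap-high Aldoc cells. The calls were checked on simulated counts. Named genes were the 12 highest and 12 lowest called ratios over Gfap-low Aldoc cells, 10 and 10 over all other kept barcodes, 8 and 8 between sets, the 10 most variable, and in each list the 3 with most UMIs and the largest call each way; not all are printed, a few genes are not reported here, and others were chosen after their values were seen. The cells and lists were chosen with earlier results of these data known. Tools were Python 3.11.15, numpy 2.4.6, scipy 1.17.1, pandas 2.3.3 and matplotlib 3.10.9.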

Additional observations from a re-analysis of the deposited data

How the results depend on the processing

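The share of kept barcodes was 11.9%. It was 11.1% with no cell filter, 17.2% and 4.54% with at least 10 or 40 Gfap UMIs, 14.2% with at least 50 Gfap UMIs per 10000, 7.25% with at least 4 Aldoc UMIs and 10.1% with no division UMI, as these settings redraw the group. Against Gfap-low Aldoc cells 612 genes were higher and 607 lower with at least 10 UMIs, 86 and 73 with at least 200, 59 and 63 at 2-fold, and 145 and 151 with intervals apart. Against all other kept barcodes 338 were higher and 1040 lower at 2-fold. Between barcode sets 52 genes were called at 2-fold, against 171. Another 71 values of these results, among them those with each set alone, doublets out, thinned cells or cells of like depth, moved by less than counting error or, for counts, by less than 1.5-fold. For the single genes named in both comparisons 653 alternative values stayed within counting error, 139 moved and 0 changed sign. These genes were chosen for their large ratios. Their call also required the same sign in each barcode set, so values with 1 set alone could not change sign. Intervals apart, leaving out barcodes rich in other types and the depth settings inside the group are settings added once results were known. The call rule ignores counting error in the comparison cells, which the setting with intervals apart adds. No paired analysis was possible because no barcode is tied to a sample and the results come from no test.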

Other observations

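Another 66 kept barcodes met the Gfap and Aldoc conditions but had at least 2 UMIs of the 5 division genes. They were 4 of 3409 kept barcodes in set 2 and 62 of 9869 in set 1, had a median of 4575.5 UMIs, and 25 of the 66 were called as doublets.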
